A study of Mus musculus with 18 samples.

Results

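The genes described here are 10 receptors, adaptors and membrane or cytoplasmic proteins that mark microglia, the resident macrophages of the nervous system: Csf1r, Tyrobp, Trem2, Fcer1g, Laptm5, Ptprc, Cx3cr1, Aif1, Cd68 and Itgam. They are 10 of the 18191 genes measured, and 19 of the 45101 probe sets carried 1 of their symbols. They were chosen for their behaviour in these same data, namely low levels in empty vector cultures and a wide spread among axonal arrays, so both patterns are given as descriptions without a test. The brightest probe set of a gene on average over the 18 arrays leads, and the others are reported beside it.

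The cells were cultures enriched for spinal motoneurons of E12.5 mouse embryos (E for embryonic day), selected by panning for the p75 receptor after the meninges and dorsal root ganglia had been taken away. They grew for 7 days in microfluidic chambers, in which axons pass through microchannels and are collected apart from the cell bodies, with 20 ng/ml BDNF on the axonal side only and 5 ng/ml CNTF on both sides. RNA of the axonal and the somatodendritic compartment was amplified in a linear way before it was hybridised to Affymetrix Mouse430_2 arrays. In each compartment 3 arrays held cultures given a lentivirus with a short hairpin RNA against Smn (knockdown), 3 held cultures given the empty lentiviral vector, and 3 held untreated wild-type cultures, so that the hairpin arrays differ from wild-type by both virus and hairpin. All groups shared the panning, the medium and the growth factors.

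Microglia depend for survival on the tyrosine kinase Csf1r, which is activated by the cytokines Csf1 and Il34. Tyrobp and Fcer1g are short transmembrane adaptors with a tyrosine motif in their tails, and receptors without such a motif, among them Trem2 (which pairs with Tyrobp) and the Fc gamma receptors (which pair with Fcer1g), signal through them to the kinase Syk. Cx3cr1 receives the neuronal chemokine Cx3cl1. Ptprc is the CD45 phosphatase of blood-derived lineages, Laptm5 and Cd68 are lysosomal membrane proteins, Aif1 is the calcium-binding protein known as Iba1, and Itgam is the alpha chain of an integrin that binds complement together with Itgb2.

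Values are deposited log2 expression values, made comparable among the arrays of a compartment but apart for the compartments. An array's background level was the 95th percentile of 124 probe sets for olfactory, vomeronasal and keratin-associated genes. It lay at 6.35 to 6.54 on the somatodendritic arrays. On axonal arrays it lay at 7.16 to 7.61 in knockdown, 6.65 to 7.20 in empty vector and 6.52 to 6.80 in wild-type cultures. Genes above it numbered 5058 to 6787 on axonal knockdown, 6590 to 9022 on axonal empty vector, 8700 to 9674 on axonal wild-type and 9850 to 10313 on somatodendritic arrays. Axonal knockdown replicates 1 and 3 stood apart from the rest, with correlations of 0.539 and 0.658 to the mean of the somatodendritic controls. Smn1, the targeted gene, had 1 probe set, which exceeded background on 1 of 18 arrays. It read 4.99 to 5.20 on somatodendritic knockdown arrays, 5.02 to 5.38 on empty vector and 4.86 to 5.12 on wild-type arrays, so it gives no check of the knockdown label. The motoneuron genes Chat, Slc18a3 and Mnx1 were below background in all 6 groups, while Prph was above it in all 6 and all 10 listed neuronal genes were above it on every somatodendritic array.

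In somatodendritic RNA most of the 10 genes were high in knockdown and wild-type cultures and near or below background in empty vector cultures. Every one of the 10 lay lower on all 3 empty vector arrays than on all 3 wild-type arrays, a pattern that 10.8% of all genes showed. For 9 of the 10, each knockdown array was higher than each empty vector array, against 19.6% of all genes. The exception on the leading probe sets was Trem2. These counts come from the contrasts that chose the genes, so they support nothing by themselves. Both contrasts share the empty vector arrays. In RNA of whole cultures, fewer microglia and less RNA per microglial cell cannot be told apart.

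**Figure D1:**
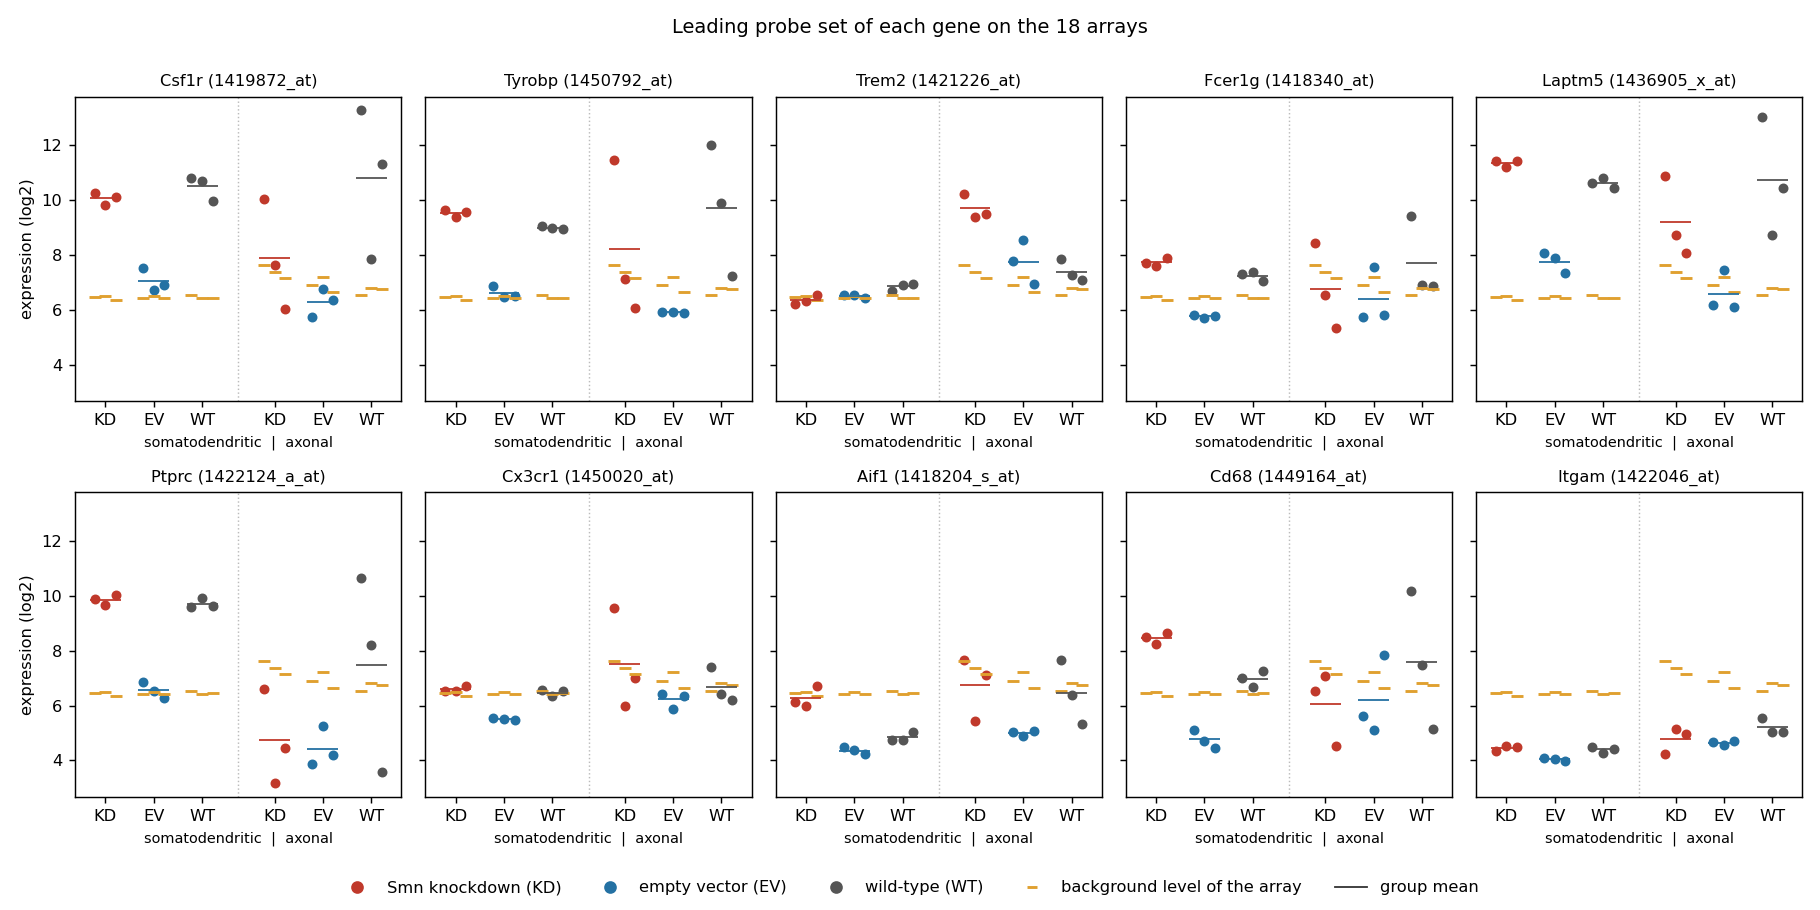
Level of the leading probe set of each gene (log2, vertical axis) on the 3 arrays of each group, with knockdown, empty vector and wild-type from left to right, first somatodendritic and then axonal; points are arrays, thin lines group means and ochre marks the background level of each array. Empty vector arrays sit lowest among the somatodendritic arrays for Csf1r, Tyrobp, Laptm5, Ptprc and Cd68, the axonal arrays of one group differ by up to 7.04 log2 units (Ptprc, wild-type), and Trem2 is highest on the 3 axonal knockdown arrays.

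Csf1r, the survival receptor, read 10.23, 9.82 and 10.10 on the somatodendritic knockdown arrays, 7.53, 6.71 and 6.91 on the empty vector arrays and 10.80, 10.70 and 9.97 on the wild-type arrays. Its empty vector arrays were all low and all still above background. The level was 10.9-fold lower in empty vector than in wild-type cultures (log2 difference -3.44, standard error [SE] 0.23), and 8.02-fold higher in knockdown than in empty vector cultures.

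Tyrobp, the adaptor of Trem2, read 9.61, 9.38 and 9.55 in knockdown, 6.85, 6.47 and 6.49 in empty vector and 9.03, 8.97 and 8.92 in wild-type somatodendritic RNA. Knockdown arrays were the highest and empty vector arrays the lowest, with no overlap between any groups. The empty vector level was above background on 2 of 3 arrays, which makes it at least 5.16-fold lower than in wild-type cultures, and the knockdown level at least 7.50-fold higher than the empty vector level. (A fold written "at least" sets the group that did not clear background on every array to background or its own value, whichever was higher.)

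Fcer1g, the other adaptor, was weaker throughout. It read 7.70, 7.60 and 7.89 in knockdown, 5.79, 5.71 and 5.79 in empty vector and 7.30, 7.37 and 7.03 in wild-type somatodendritic RNA. All empty vector arrays were below background, at least 1.73-fold under wild-type, and the knockdown arrays were at least 2.44-fold over empty vector.

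Laptm5 was the brightest of the 10 in somatodendritic RNA, with 11.41, 11.20 and 11.41 in knockdown, 8.05, 7.87 and 7.33 in empty vector and 10.62, 10.79 and 10.44 in wild-type cultures. The empty vector level was 7.31-fold under wild-type, and the knockdown level 12.1-fold over empty vector. Its leading probe set, 1436905_x_at, is of the kind that may also bind related transcripts.

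Ptprc read 9.87, 9.65 and 10.03 in knockdown, 6.86, 6.54 and 6.26 in empty vector and 9.59, 9.89 and 9.61 in wild-type somatodendritic RNA. Knockdown and wild-type arrays overlapped, and the empty vector arrays lay more than 2 log2 units under both. The empty vector level was at least 8.55-fold lower than in wild-type cultures, and the knockdown level at least 9.52-fold higher than in empty vector cultures.

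Cd68 differed among all 3 kinds of culture, with 8.50, 8.24 and 8.64 in knockdown, 5.11, 4.72 and 4.46 in empty vector and 7.00, 6.67 and 7.27 in wild-type somatodendritic RNA. All empty vector arrays were below background, so the level there was at least 1.45-fold under wild-type, and the knockdown level at least 4.05-fold over empty vector.

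Cx3cr1 and Aif1 were close to background even on the somatodendritic arrays where they were highest. Cx3cr1 read 6.51, 6.52 and 6.72 in knockdown, 5.53, 5.52 and 5.46 in empty vector and 6.56, 6.33 and 6.53 in wild-type somatodendritic RNA. Aif1 read 6.14, 5.98 and 6.70 in knockdown, 4.49, 4.37 and 4.22 in empty vector and 4.73, 4.74 and 5.05 in wild-type somatodendritic RNA. Of these arrays only knockdown replicate 3 cleared background for Aif1. Itgam stayed below background on all 18 arrays, at 3.96 to 5.53, so no level is given for it.

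Trem2 differed least among the 10 between empty vector and wild-type somatodendritic RNA (-0.35). It read 6.22, 6.31 and 6.52 in knockdown, 6.52, 6.53 and 6.43 in empty vector and 6.69, 6.92 and 6.94 in wild-type cultures, all within 1 log2 unit and near background. Over the 10 genes the median difference was 2.44 for knockdown minus empty vector (all genes -0.02) and -1.84 for empty vector minus wild-type (all genes -0.02).

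In the comparisons with empty vector cultures the other probe sets of the same genes mostly differed less than the leading ones. Csf1r's 1419873_s_at read 8.13, 8.06 and 8.22 in knockdown, 7.12, 6.90 and 7.06 in empty vector and 8.89, 8.58 and 8.13 in wild-type somatodendritic RNA, while 1423593_a_at lay between 6.33 and 6.85. Of the 4 further Laptm5 probe sets, 1426025_s_at showed the same order (empty vector minus wild-type -0.57), 1417721_s_at and 1459841_x_at differed by -0.03 and -0.34 in that contrast and were below background on every somatodendritic array, and 1447742_at ran the other way (0.20, and -0.40 for knockdown minus empty vector). The further probe sets of Ptprc (1440165_at) and Cx3cr1 (1450019_at) were below background on all 18 arrays and differed by 0.08 and -0.06. The second Trem2 probe set, 1421792_s_at, lay at 6.32 to 6.61 on all somatodendritic arrays. On it every knockdown array was above every empty vector array (0.17), while the leading probe set gave -0.14 with overlapping groups.

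**Figure D2:**
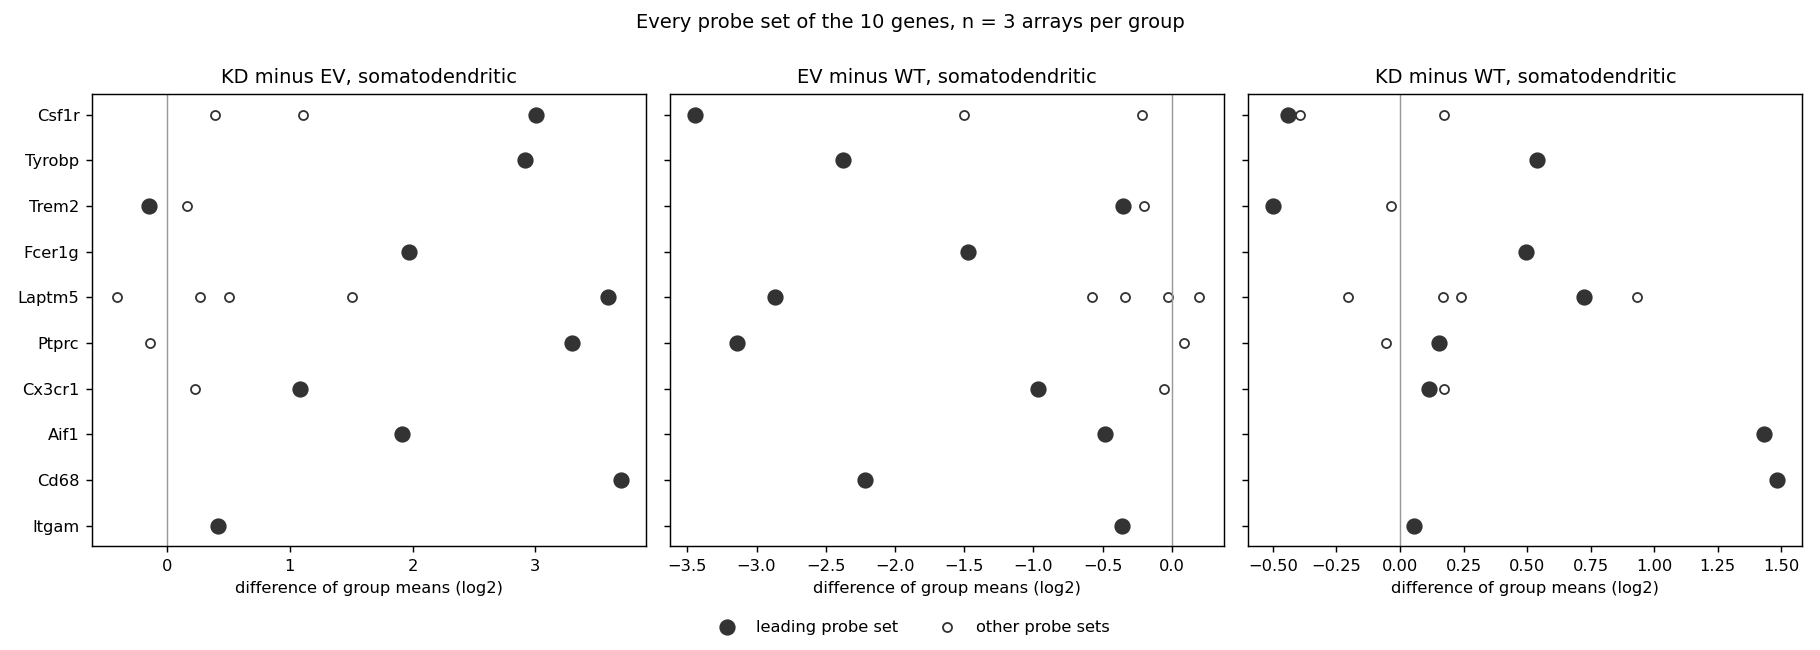
Difference of group means (log2, horizontal axis) for each of the 19 probe sets in somatodendritic RNA, for knockdown minus empty vector, empty vector minus wild-type and knockdown minus wild-type; filled circles are leading probe sets and open circles the others. Leading probe sets reach 3.70 in the first panel and -3.44 in the second, with the other probe sets of Csf1r, Laptm5, Ptprc and Cx3cr1 closer to 0.

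Many myeloid genes are read by the transcription factor PU.1, the product of Spi1, which binds around the letters GAGGAA. Because most of the 10 genes were low together in empty vector cultures, their promoters were searched for GAGGAA on both strands (TTCCTC on the strand printed) in the 250 bases before the start, using the RefSeq promoter table of build GRCm38.p6. Of the 8 members searched there, 6 held it, namely Trem2, Laptm5, Ptprc, Aif1, Cd68 and Itgam, and Fcer1g and Cx3cr1 did not. Csf1r and Tyrobp were not among the 8. A gene counted if the letters stood before any of its listed starts, and a further start of Ptprc had none. Of the 27025 genes with such a promoter sequence, 25.85% held the letters. Stretches of 80 bases are printed for 3 genes that were low in empty vector cultures and for Trem2, which differed little there, with the match in capitals. Positions count back from the base before the start, and the matches begin at -38 (Laptm5), -158 (Ptprc), -225 (Cd68) and -40 (Trem2).
Laptm5, chr4:130913236-130913315, plus strand: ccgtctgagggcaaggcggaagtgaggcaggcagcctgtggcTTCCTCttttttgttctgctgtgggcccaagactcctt
Ptprc, chr1:138175421-138175500, minus strand: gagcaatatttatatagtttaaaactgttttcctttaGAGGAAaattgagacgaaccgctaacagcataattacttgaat
Cd68, chr11:69666341-69666420, minus strand: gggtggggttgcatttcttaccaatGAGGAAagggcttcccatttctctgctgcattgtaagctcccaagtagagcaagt
Trem2, chr17:48346321-48346400, plus strand: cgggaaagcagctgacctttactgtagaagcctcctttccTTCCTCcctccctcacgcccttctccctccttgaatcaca
The letters thus stand in front of genes with large and with small differences between empty vector and wild-type somatodendritic cultures. Among the small ones were Trem2 (-0.35), Itgam (-0.36) and Aif1 (-0.48), of which Itgam and Aif1 were below background in both. Fcer1g (-1.47) and Cx3cr1 (-0.97), which lacked the letters, differed more than these. Spi1 itself was below background in all 3 somatodendritic groups, with means of 5.93 in knockdown, 5.87 in empty vector and 6.09 in wild-type cultures.

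The comparison of knockdown with wild-type somatodendritic cultures asks whether the genes differed between the cultures in which they were high. It was not the contrast that chose them, though it uses the knockdown and wild-type arrays of those that did. Of the 10 genes 6 passed the test (limma, Benjamini-Hochberg adjusted p under 0.05 over all genes), against 36.0% of all genes. Cd68 rose by 1.48 (SE 0.18, adjusted p = 4.8e-05), a 2.80-fold higher level in knockdown cultures. Aif1 rose by 1.43 (SE 0.16, adjusted p = 3.4e-05), though neither group cleared background on every array. The adaptors rose less, Tyrobp by 0.54 (SE 0.11, adjusted p = 0.00226) and Fcer1g by 0.49 (SE 0.11, adjusted p = 0.00322). Laptm5 rose by 0.72 (SE 0.16, adjusted p = 0.00375) on its leading probe set. Of its other probe sets 1426025_s_at (0.93), 1417721_s_at (0.24) and 1459841_x_at (0.17) were also higher on all knockdown arrays, and 1447742_at, the one left without _x_at and _s_at probe sets, differed by -0.20 (adjusted p = 0.463). Trem2 fell by 0.50 on the log2 scale (SE 0.10, adjusted p = 0.00231), but its second probe set differed by -0.04 with overlapping groups. On the leading probe sets the groups did not overlap for each of these 6 genes. Of all 18191 genes, 3802 lay higher and 5052 lower on all knockdown arrays than on all wild-type arrays.

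The remaining 4 did not pass. Csf1r differed by -0.44 (SE 0.23, adjusted p = 0.168), and it passed without wild-type replicate 3 (-0.70, adjusted p = 0.0206). Ptprc differed by 0.16 (SE 0.15), Cx3cr1 by 0.11 (SE 0.09) and Itgam by 0.05 (SE 0.09). The median of the 10 was 0.32, against -0.03 for all genes. In one fit to all 18 arrays, whose common spread takes in the axonal arrays, no member passed (adjusted p between 0.408 and 0.9998 for the 10), and the count over all genes was 144 instead of 6550. Astrocyte and oligodendrocyte genes differed between the same cultures, with mean levels of 8.27 to 8.74 and 7.25 to 7.88 on knockdown arrays and 9.01 to 9.12 and 8.58 to 8.83 on wild-type arrays, and their part in the result was not tested.

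The signalling partners were described with a list of which 26 genes were analysed here. In somatodendritic knockdown against wild-type cultures 7 of the 26 rose and 3 fell, a share close to the 36.0% of all genes that passed. The lowest p-values among the rises belonged to Fyb, a scaffold protein of immune cells (2.13, SE 0.11, adjusted p = 8.6e-08), Fcgr4, an Fc gamma receptor that uses Fcer1g (1.44, SE 0.11, adjusted p = 2.0e-06), and the myeloid factor Cebpa (0.81, SE 0.08, adjusted p = 9.7e-06). For Fcgr4 (mean 5.32) and Cebpa (6.33) every wild-type array was below background. Those that fell were the shedding proteases Adam10 (-0.58, SE 0.09) and Adam17 (-0.66, SE 0.12) and the transcription factor Runx1 (-0.23, SE 0.08). Ligands differed little in level. Cx3cl1 rose by 0.37 (SE 0.12, adjusted p = 0.0284), Csf1 averaged 7.31 in knockdown and 7.61 in wild-type cultures, and Il34 was below background in all 6 groups. In empty vector against wild-type cultures, which was not tested, 18 of the 26 lay lower on all arrays (10.8% of all genes did), among them Fyb (6.08 in empty vector and 7.47 in wild-type cultures), the Itgam partner Itgb2 (5.61 and 7.68) and Fcgr3 (5.88 and 7.99).

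Further markers of the same cells were checked as well. Of 21 measured genes of a list of other microglial genes, 17 lay lower on all 3 empty vector than on all 3 wild-type somatodendritic arrays (against 10.8% of all genes), among them Ctss (9.65 in empty vector and 12.11 in wild-type cultures), Mpeg1 (7.57 and 10.60) and C1qb (6.03 and 7.94). Of the microglial genes on that list, P2ry12 and Tmem119 were below background in all 6 groups, with P2ry12 between 3.36 and 4.51 on group average. Gpr34 was below it on every somatodendritic array, and P2ry13 exceeded it on 1 wild-type array there. Fcrls, by contrast, was above it on every somatodendritic knockdown and wild-type array (means 7.31 and 8.60), with 6.33 in empty vector cultures. Olfml3 was above it on every somatodendritic knockdown array (6.84). Mrc1 and Ms4a7, which are also known from macrophages at the borders of the brain, were above background on every somatodendritic wild-type array (means 7.54 and 7.86), and Ms4a7 also in knockdown cultures (8.55). Both were below it on every somatodendritic empty vector array. The other 5 genes of that list of 7, Cd163, Lyve1, F13a1, Pf4 and Cbr2, were below background on every somatodendritic array. No gene of a granulocyte and mast cell list was above background on any array.

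Genes with the closest profile to the 10 were found by the correlation of each gene with the mean of the 10 leading probe sets over the 9 somatodendritic arrays, among 1821 genes above background in wild-type that ranged over at least 1 log2 unit. The closest 10 were Mpeg1, Cd53, Ctsz, Fcgr3, Ms4a6d, Serpinb6b, Plek, Grn, Cd300c2 and Ctss, with r of 0.987 to 0.997. These points share arrays and fall into 3 groups, so the values are a description. Mpeg1, a pore-forming protein of macrophages, read 11.20, 10.91 and 11.27 in knockdown, 7.95, 7.65 and 7.10 in empty vector and 10.54, 10.68 and 10.56 in wild-type cultures. Among the members themselves r with that mean, which includes the gene, was 0.998 for Tyrobp, 0.997 for Laptm5, 0.947 for Csf1r, 0.799 for Aif1 and 0.07 for Trem2.

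In axonal RNA the arrays of one group disagreed about these genes far more than in somatodendritic RNA. The standard deviation (SD) over 3 arrays had a median over the 10 genes of 1.52 in knockdown, 0.62 in empty vector and 1.82 in wild-type axonal groups, against 0.49, 0.49 and 0.36 over all genes. In the somatodendritic groups it was 0.15 to 0.17, against 0.09 to 0.12 over all genes. The SD exceeded the 90th percentile of all genes for 4 of the 10 in axonal knockdown, 1 in empty vector and 6 in wild-type cultures. Genes above background on some array of the group spread more. Their median SD was 0.76 in axonal knockdown, 0.69 in empty vector and 0.54 in wild-type RNA, with 90th percentiles of 2.07, 1.69 and 1.41. Only Tyrobp (2.86) exceeded that percentile in knockdown, no member did in empty vector, and the same 6 did in wild-type cultures.

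**Figure D3:**
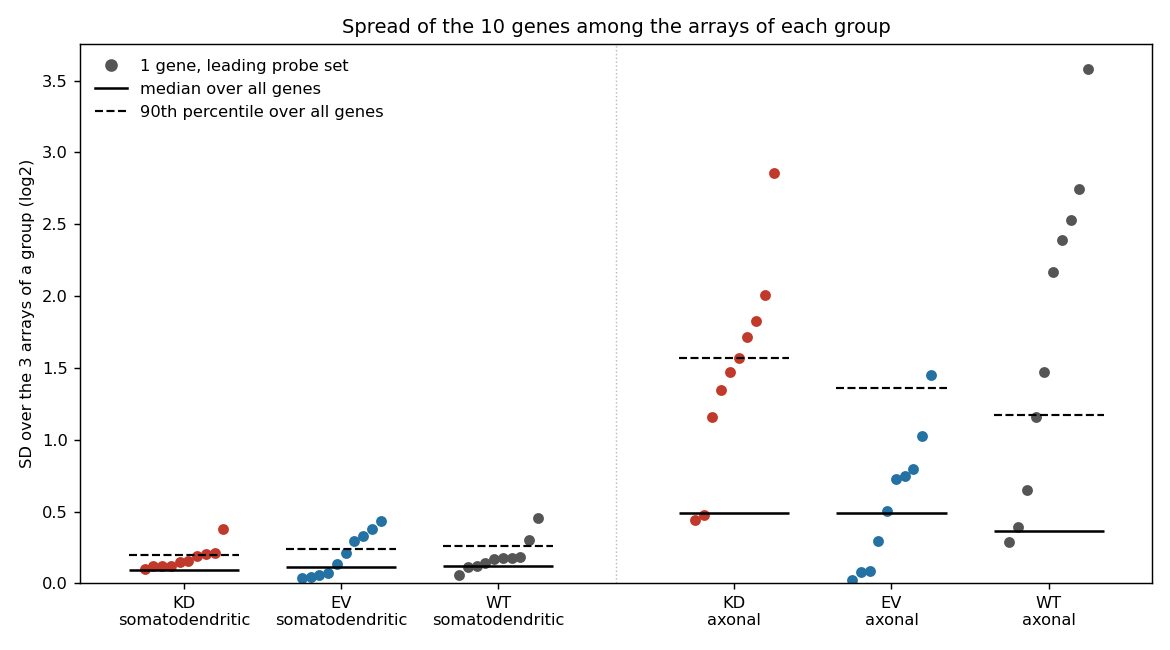
SD over the 3 arrays of a group (log2, vertical axis) for each of the 10 genes (points, sorted within each group), with the median (solid line) and the 90th percentile (dashed line) of all genes. Points reach 3.58 in axonal wild-type and 2.86 in axonal knockdown RNA, and stay at or under 0.45 in the somatodendritic groups.

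A single wild-type array carried the highest levels. Axonal wild-type replicate 1 was the highest of its group for all 10 genes and the highest of all 9 axonal arrays for 7, with axonal knockdown replicate 1 the highest for the other 3. Csf1r read 10.01, 7.64 and 6.02 on the axonal knockdown arrays, 5.73, 6.74 and 6.36 on the empty vector arrays and 13.25, 7.84 and 11.32 on the wild-type arrays. Tyrobp read 11.46, 7.12 and 6.07 in knockdown, 5.92, 5.92 and 5.88 in empty vector and 12.001, 9.89 and 7.23 in wild-type axonal RNA. Laptm5 read 10.86, 8.71 and 8.05 in knockdown, 6.17, 7.43 and 6.11 in empty vector and 13.005, 8.70 and 10.42 in wild-type axonal RNA. For these 3 genes the wild-type arrays all lay above the empty vector arrays, and 1 or more of them overlapped the knockdown arrays.

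Ptprc covered the widest range, with 6.59, 3.19 and 4.46 in knockdown, 3.87, 5.25 and 4.18 in empty vector and 10.63, 8.19 and 3.58 in wild-type axonal RNA. Only wild-type replicates 1 and 2 cleared background. Cd68 read 6.54, 7.07 and 4.52 in knockdown, 5.60, 5.11 and 7.84 in empty vector and 10.18, 7.47 and 5.13 in wild-type axonal RNA, and the groups overlapped. Fcer1g read 8.43, 6.54 and 5.32 in knockdown, 5.75, 7.56 and 5.82 in empty vector and 9.41, 6.88 and 6.85 in wild-type axonal RNA. The empty vector arrays lay within the knockdown range for Fcer1g, and so did replicates 1 and 2 for Cd68, where replicate 3 lay above every knockdown array.

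Cx3cr1, Aif1 and Trem2 were exceptions in that their highest axonal array was knockdown replicate 1. Cx3cr1 read 9.55, 6.00 and 7.01 in knockdown, 6.43, 5.89 and 6.36 in empty vector and 7.41, 6.42 and 6.19 in wild-type axonal RNA. Aif1 read 7.67, 5.45 and 7.11 in knockdown, 5.05, 4.90 and 5.06 in empty vector and 7.64, 6.37 and 5.34 in wild-type axonal RNA, and cleared background on replicate 1 of knockdown and of wild-type only. The other probe sets did not all follow in axonal RNA. Csf1r's 1419873_s_at read 7.11, 7.95 and 6.74 in knockdown, 6.26, 7.18 and 6.62 in empty vector and 11.54, 7.45 and 8.48 in wild-type axonal RNA, with wild-type replicate 1 again the highest. Its 1423593_a_at read 9.62, 8.30 and 7.65 in knockdown, 7.51, 7.15 and 6.75 in empty vector and 7.57, 7.06 and 7.08 in wild-type axonal RNA. There all knockdown arrays were above all others, and knockdown minus wild-type was 1.29, against -2.91 on the leading probe set. The 4 further Laptm5 probe sets differed by -0.22 to 0.69 for knockdown minus wild-type, against -1.50 on the leading one, and by -0.92 to 0.29 for empty vector minus wild-type. Those of Ptprc and Cx3cr1 stayed below background.

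Averaged over the 10 genes, the axonal arrays read 8.56, 6.62 and 6.30 in knockdown, 5.69, 6.19 and 5.93 in empty vector and 9.69, 7.41 and 6.81 in wild-type cultures.

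Markers of other cells were measured on the same arrays. The mean of the other microglial genes followed the 10, with 7.88, 6.53 and 6.34 in knockdown, 5.92, 5.80 and 5.67 in empty vector and 8.72, 6.76 and 6.27 in wild-type axonal RNA. Fibroblast and meningeal genes were also highest on axonal wild-type replicate 1 (8.78, with 6 of 8 genes above background), against 6.15 and 6.66 on the other wild-type arrays, 6.36 to 7.00 on knockdown and 6.16 to 7.66 on empty vector arrays. Astrocyte genes were highest on wild-type replicate 2 (8.06, with 7 of 9 above background), against 5.63 to 6.81 on all other axonal arrays. Oligodendrocyte genes lay at 6.67 to 6.78 in knockdown, 6.20 to 6.49 in empty vector and 6.86 to 7.45 in wild-type axonal RNA. Lymphocyte genes lay at 6.81 to 7.44 in knockdown, 5.96 to 6.70 in empty vector and 6.02 to 6.23 in wild-type axonal RNA. The part of these markers in the spread of the 10 genes was not tested.

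**Figure D4:**
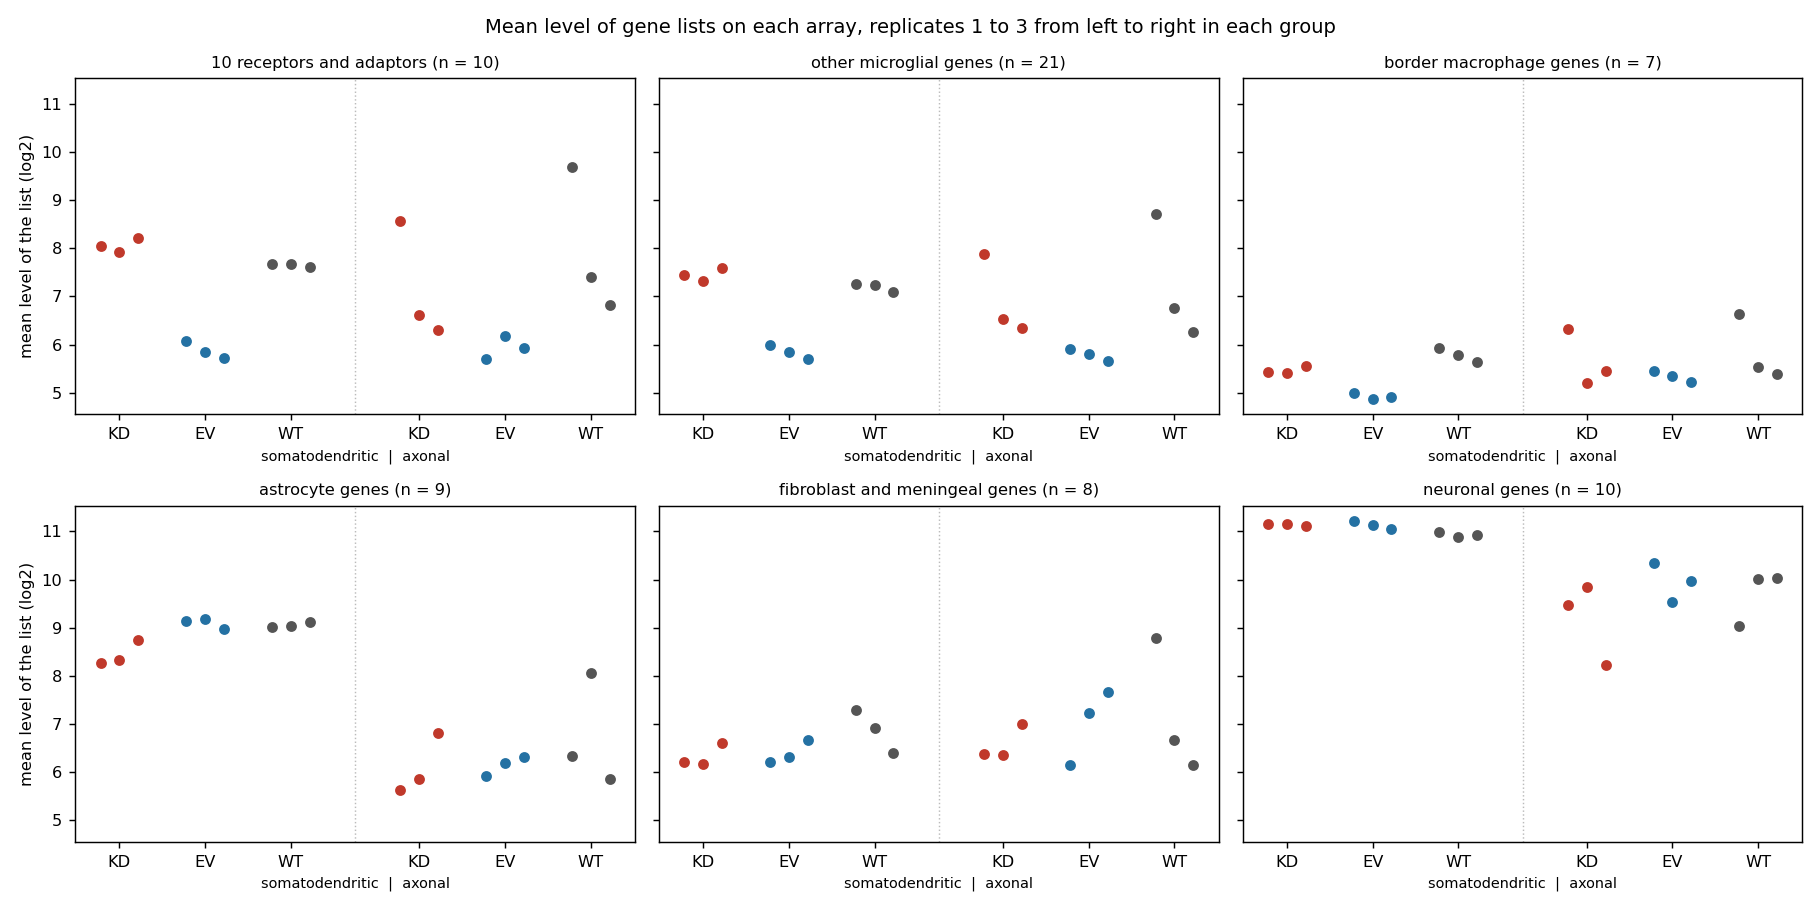
Mean level (log2, vertical axis) of 6 gene lists on each array, with knockdown, empty vector and wild-type from left to right in each compartment and replicates 1 to 3 from left to right within a group. The 10 receptors and adaptors and the other microglial genes peak together on axonal wild-type replicate 1 (9.69 and 8.72) and axonal knockdown replicate 1 (8.56 and 7.88), fibroblast and meningeal genes also peak on axonal wild-type replicate 1 (8.78) and astrocyte genes on axonal wild-type replicate 2 (8.06).

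None of the 10 passed in limma for axonal knockdown against empty vector or against wild-type. Both the empty vector level and the spread among axonal arrays had a part in the choice of the genes, so the comparisons with axonal empty vector arrays are not independent of it. For knockdown against empty vector 0.176% of all genes passed. The differences of Laptm5 (2.64, SE 1.10) and Aif1 (1.74, SE 0.69) are given as a description. Empty vector against wild-type is given as a description as well. The largest differences were those of Csf1r (-4.52, SE 1.38), Laptm5 (-4.14, SE 1.10) and Tyrobp (-3.80, SE 1.50), each lower on all empty vector arrays, with folds of at least 14.8, 13.2 and 6.94. All empty vector arrays were lower for 5 of the 10 and for 826 of all 18191 genes. For knockdown against wild-type 0.0990% of all genes passed, and the lowest adjusted p of the 10 was that of Trem2 (0.0616). The median differences of the 10 were 1.46, -1.43 and -1.22, against 0.06, 0.03 and 0.03 for all genes. These comparisons share arrays with each other, and each median leaned on single arrays. Without knockdown replicate 1 the first was 0.48. The second was -0.67 without wild-type replicate 1 and -2.32 without wild-type replicate 3. The third was -0.25 without wild-type replicate 1 and -0.46 without knockdown replicate 3. In one fit to all 18 arrays, Trem2 (adjusted p = 0.00133), Laptm5 (0.04) and Aif1 (0.0311) passed for knockdown against empty vector, against 3763 of all 18191 genes. These calls are no support, since the empty vector level had a part in the choice. Trem2 (0.000405) passed for knockdown against wild-type in that fit, against 4483 of all genes.

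Trem2 did not follow the other genes. Its axonal arrays read 10.19, 9.39 and 9.47 in knockdown, 7.75, 8.52 and 6.93 in empty vector and 7.83, 7.27 and 7.06 in wild-type cultures. All knockdown arrays lay above all others. Of all 18191 genes, 2424 lay higher on all axonal knockdown than on all empty vector arrays, and 3418 than on all wild-type arrays. The SD of 0.44 in knockdown and 0.40 in wild-type RNA was close to the median of all genes. The level was 4.92-fold higher in knockdown than in wild-type axonal RNA (2.30, SE 0.45, adjusted p = 0.0616), and 3.86-fold higher than in empty vector axonal RNA (1.95, SE 0.45, adjusted p = 0.0883), so neither passed. With array weights the difference from wild-type passed (2.30, adjusted p = 0.0317). The second probe set gave the same order, with 9.52, 8.55 and 8.68 in knockdown, 7.41, 8.09 and 6.61 in empty vector and 7.63, 7.16 and 6.99 in wild-type axonal RNA.

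The interaction tested whether knockdown minus wild-type differed between axonal and somatodendritic RNA. Trem2 passed, at 2.79 (SE 0.47, adjusted p = 0.00379), with 2.30 in axonal and -0.50 in somatodendritic RNA. It was the 1 member of 10 to pass, against 10.7% of all genes, and it passed under all 16 alternatives run, at adjusted p of 0.00178 to 0.0145. Of the 9 measured lymphocyte genes, 4 passed in the same direction and 0 in the other, against 1343 and 603 of all 18191 genes. The 3 axonal knockdown arrays had the highest background of the series except for empty vector replicate 2, which lay above knockdown replicate 3. At the 99th percentile in place of the 95th, background read 9.50, 8.83 and 9.05 on the knockdown arrays and 7.38 to 7.57 on the wild-type arrays. Trem2 cleared the higher level on each of the 3 knockdown arrays by 0.70, 0.55 and 0.43, and its second probe set did so on replicate 1 only. The part of this shift in the result was not tested. The other 9 genes had interactions between -3.03 (Cd68, SE 1.41, adjusted p = 0.184) and 0.73 (Cx3cr1, SE 0.86), and the median of the 10 was -1.74, against 0.03 for all genes.

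Of the 26 signalling partners, 3 passed the interaction in the same direction as Trem2, namely Runx1 (2.03, SE 0.31, adjusted p = 0.0027), the Csf1r ligand Csf1 (2.14, SE 0.51, adjusted p = 0.0155) and the adaptor Lcp2 (1.06, SE 0.31, adjusted p = 0.0402). Of all 18191 genes, 1343 passed in that direction and 603 in the other. Runx1 averaged 9.25 in knockdown, 7.96 in empty vector and 7.45 in wild-type axonal RNA, and Csf1 averaged 9.78, 8.25 and 7.94 in the same groups. Lcp2 was below background on every array. Fcgr4 passed in the other direction (-2.08, SE 0.56, adjusted p = 0.0296), though it was below background on every axonal knockdown and every somatodendritic wild-type array. None of the 26 passed in a comparison of axonal groups.

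Axonal against somatodendritic levels compare values that were brought to a common distribution separately, so they rest on that step. They are also not independent of the choice of the genes, in which low empty vector levels and a wide axonal spread had a part. A wide spread makes calls fewer, so the counts below say nothing about the 10 against all genes. In knockdown cultures 4 of the 10 passed, against 61.7% of all genes. Trem2 rose, at least 9.13-fold higher in axonal RNA (3.33, SE 0.33, adjusted p = 3.7e-06). Ptprc fell, at least 5.57-fold lower in axonal RNA (-5.11, SE 1.24, adjusted p = 0.00277). Laptm5 (-2.14, SE 0.85, adjusted p = 0.0403) and Cd68 (-2.42, SE 1.00, adjusted p = 0.0468) fell as well, but each lost its call without any of 5 of the 6 arrays compared, at adjusted p of up to 0.155 and 0.188. The exceptions were axonal knockdown replicate 1 for Laptm5 (-2.96) and replicate 2 for Cd68 (-2.94). With all 18 arrays normalized together both also failed (adjusted p = 0.167 and 0.135).

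In empty vector cultures, whose low levels had a part in the choice, 2 of the 10 passed, against 42.0% of all genes. Trem2 rose by 1.24 (SE 0.33, adjusted p = 0.0111), a 2.36-fold higher level in axonal RNA, and Itgam, which is below background, by 0.61 (SE 0.21, adjusted p = 0.033), a call that was lost without any 1 of the 6 arrays (adjusted p of 0.0511 to 0.0924). In wild-type cultures 2 passed, against 29.1% of all genes, namely Aif1 (1.61, SE 0.53, adjusted p = 0.0355) and Itgam (0.81, SE 0.21, adjusted p = 0.0143). Aif1 lost its call without any of 5 of the 6 arrays, all but axonal replicate 3, at adjusted p of up to 0.146. Itgam lost its call without axonal replicate 1 (0.0556) or somatodendritic replicate 2 (0.0581). With all 18 arrays normalized together none of these Itgam and Aif1 calls held (adjusted p of 0.153 to 0.577). Trem2 differed by 0.54 in wild-type cultures (SE 0.33, adjusted p = 0.21). Every axonal array lay above every somatodendritic array, as for 6725 of all 18191 genes. Csf1r, Tyrobp and Laptm5 differed by 0.31, 0.73 and 0.09 in wild-type cultures, with SEs of 1.07, 1.14 and 0.85, so that neither a gain nor a loss of several fold in axonal RNA was detectable at this number of arrays.

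Over the 9 axonal arrays the genes closest to the mean of the 10 were Ctsz, Lyz2, Ctla2b, Dhrs3 and Gpnmb, with r of 0.959 to 0.982 among 9107 genes. Ctsz, a lysosomal protease, was among the closest in both compartments. Members' own r with that mean was 0.963 for Tyrobp, 0.924 for Laptm5, 0.644 for Cx3cr1, 0.341 for Itgam and 0.18 for Trem2. As in somatodendritic RNA, Trem2 was thus the least like the rest.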

How the data were processed

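The deposited values are log2 expression values of 45101 probe sets on 18 arrays; the sources used here do not name the software behind them. Sorted values differed by at most 0.0048 among somatodendritic and 0.0125 among axonal arrays, so the authors normalized the compartments apart, as the deposited log2 values show. Of the probe sets 34945 named 1 gene, 932 several and 9160 none; 64 controls and 11 probe sets with a missing value were left out. Symbols came from the platform annotation, updated by gene identifier. The probe set with the highest mean stood for each of 18191 genes.

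Differences were tested with limma 3.58.1 (lmFit, eBayes) in R 4.3.3, adjusted by Benjamini-Hochberg over all genes at 0.05, on 9 arrays within and 18 arrays between compartments. The SE is limma's, and 3 arrays per group limit the precision. The labels do not say whether the arrays of a group stem from separate cultures, so p-values measure only the spread between arrays, which may be technical. Knockdown titles follow another numbering than control titles. Control titles share numbers among groups, and whether these pair the arrays is not known. Of 18 correlations of same-numbered arrays 1 exceeded 0.1 (range -0.19 to 0.23), which 3 arrays per group cannot settle. The members, gene lists, motif and tests were chosen with earlier results of these data known. Named were all members, up to 3 signalling partners per direction with the lowest p in a tested comparison, and the closest 10 and 5 genes; others are examples chosen after their values were seen. Alternatives covered the probe set, normalization, filter, prior, array weights, arrays left out and a replicate block. The scripts were tested on simulated data.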

Additional observations from a re-analysis of the deposited data

Results flagged for a closer look

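Trem2 was singled out because its knockdown against wild-type difference was not the same in both compartments. The difference was 2.30 on the log2 scale in axonal RNA and -0.50 in somatodendritic RNA (3 arrays per group), and the interaction of 2.79 passed with limma (SE 0.47, adjusted p = 0.00379). On the leading probe set each of the 3 axonal knockdown arrays lay above each wild-type array, and each of the 3 somatodendritic knockdown arrays lay below each wild-type array. Of all 18191 genes, 3418 showed the first pattern and 5052 the second. The second probe set showed only the first (1.65), with -0.04 and overlapping groups in somatodendritic RNA. There the leading probe set cleared background on 1 of the 3 knockdown arrays. Background was also higher on the axonal knockdown arrays (7.16 to 7.61, against 6.52 to 6.80 on axonal wild-type arrays), and its part was not tested. Of 9 measured lymphocyte genes, 4 passed the interaction in the same direction as Trem2, against 1343 of all 18191 genes.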

How the results depend on the processing

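Signal over background limits these results: 5 members cleared background on every wild-type and 2 on every knockdown axonal array, and at the 99th percentile 2 and 1. Of the alternatives other than left-out arrays, 103 of 124 summary values held and 21 moved. The somatodendritic medians of the members for knockdown minus empty vector, empty vector minus wild-type and knockdown minus wild-type were 1.97, -1.47 and 0.12 (called 4 of 9) without _x_at and _s_at probe sets, and the axonal knockdown minus empty vector median 0.41. Laptm5 changed sign in that setting: -0.40, 0.20 and -0.20 in those somatodendritic contrasts, and 0.29 (empty vector minus wild-type) and 0.69 (knockdown minus wild-type) in axonal RNA. With the mean of all probe sets the first 2 medians were 1.54 and -1.10, Trem2 turned to 0.012 (somatodendritic knockdown minus empty vector) and Laptm5 to 0.065 (empty vector, axonal minus somatodendritic). With dim genes left out the medians were 2.96 and -2.29, the axonal empty vector minus wild-type median -2.60, and 1 member was called between compartments in empty vector and 1 in wild-type cultures. With all arrays quantile-normalized together the medians were 2.11 and -1.62, the members called between compartments 2 in knockdown, 1 in empty vector (median 0.23) and 0 in wild-type cultures, and Itgam turned to -0.051 in knockdown. One fit to all arrays called 0 members for somatodendritic knockdown against wild-type, 3 for axonal knockdown against empty vector and 1 against wild-type; array weights called 1 in the last. With array weights Csf1r (-0.23), Laptm5 (-0.40) and Cd68 (-0.0072) turned in wild-type cultures between compartments. Without axonal knockdown replicates 1 and 3, which leaves 1 array assumed to vary like the other groups, knockdown minus empty vector was -1.24 for Ptprc, -0.22 for Cx3cr1 and 0.89 for Cd68, and knockdown minus wild-type -0.67 for Cx3cr1 and -0.998 for Aif1. Of the values that turned in a tested comparison, only that of Laptm5 in somatodendritic knockdown against wild-type had passed the test.

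Leaving out 1 array at a time, the medians ranged from 0.48 to 1.90 for axonal knockdown minus empty vector, -2.32 to -0.67 for axonal empty vector minus wild-type and -1.79 to -0.25 for axonal knockdown minus wild-type, and between compartments from -2.24 to -0.24 in knockdown, 0.34 to 0.64 in empty vector and -0.39 to 0.80 in wild-type cultures, with 2 to 7, 1 and 0 to 2 members called. For the interaction the median ranged from -2.67 to -0.74, with 1 to 3 members called. Members not called by the test that changed sign ranged as follows. In axonal knockdown minus empty vector these were Fcer1g (-0.45 to 1.11), Ptprc (-0.61 to 1.09), Cd68 (-0.68 to 0.69) and Itgam (-0.042 to 0.40), and in axonal knockdown minus wild-type Cx3cr1 (-0.17 to 1.61) and Aif1 (-0.26 to 0.94). Elsewhere they were Trem2 in axonal empty vector minus wild-type (-0.045 to 0.75), Itgam in somatodendritic knockdown minus wild-type (-0.0041 to 0.11) and Cx3cr1 in knockdown between compartments (-0.079 to 1.70) and in the interaction (-0.28 to 1.49). In wild-type cultures between compartments they were Csf1r (-0.91 to 1.79), Tyrobp (-0.41 to 1.97), Fcer1g (-0.37 to 0.91), Laptm5 (-1.06 to 1.09), Cx3cr1 (-0.17 to 0.44) and Cd68 (-0.68 to 1.85).

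Counts over all genes moved as well. One fit to all arrays called 144 genes for somatodendritic knockdown against wild-type (6550 in the compartment's own fit), 3763 for axonal knockdown against empty vector (32), 4483 for axonal knockdown against wild-type (18, and 897 with array weights) and 53 for axonal empty vector against wild-type (0). For axonal knockdown against empty vector 12 genes were called with the mean of probe sets, 68 with dim genes left out, 17 with an intensity trend and 76 with joint normalization, which called 31 against wild-type. Without the 2 knockdown arrays both counts were 0. Between compartments, joint normalization called 8518, 3110 and 1550 genes in knockdown, empty vector and wild-type cultures (11229, 7632 and 5285 otherwise), and the filter on dim genes 6883, 3972 and 2736. The cause of these shifts was not tested. Whether control numbers pair the arrays is not known. With the replicate block the member counts were unchanged (10 below wild-type in somatodendritic and 0 called in axonal empty vector RNA, and 2 and 2 between compartments). In that setting 7360 and 4936 genes were called between compartments in empty vector and wild-type cultures.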
